A study of Mus musculus with 2 samples.

Results

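The genes described here are the 9 members of a set built around osteopontin and lipid-associated macrophages, Spp1, Apoe, Lgals3, Trem2, Gpnmb, Cd9, Cd63, Fabp5 and Plin2. They were taken by symbol from GENCODE M21, and each matched 1 of the 37315 gene identifiers in the count files. All 9 had an average of 1 CPM or more over the libraries (the count divided by the scaled library size, times 1000000), as did 14518 genes in all. The list was drawn up with the ratios of PM2.5 over control in these same libraries in view, so the members count as chosen by those ratios, and their values are a description that supports nothing beyond itself.

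Messenger RNA was sequenced from lung of C57BL/6 mice, an inbred laboratory strain, in 1 library from PM2.5 exposure and 1 control library. PM2.5 is the fine fraction of airborne particulate matter. The sample titles both end in 12W, a code with no explanation in the labels, and the labels used here are silent on sex, age, dose, route, duration and the number of animals per library. The PM2.5 library held 57435027 counts and the control library 62788045. There are no replicates, so differences have no replicate check and carry no p-value. Each ratio of CPM, PM2.5 over control, has an exact 95% Clopper-Pearson interval that covers counting error only, and it describes these 2 libraries rather than the conditions.

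Lipid-associated macrophages are macrophages that take up and store lipid, described in fat tissue, atherosclerotic plaque, liver and injured lung. TREM2, a surface receptor that binds lipids and lipoproteins and signals through the adaptor TYROBP, is needed for much of this state in mice. Its usual markers also include secreted osteopontin (Spp1), the glycoprotein GPNMB, lipid carriers and droplet proteins, and tetraspanins of the surface and the lysosome. Several of these genes are also used by other lung cells. Apoe, Cd9, Cd63 and Lgals3 are expressed in epithelium or stroma as well, Fabp5 in epithelium and endothelium, and Plin2 in any cell that stores lipid. In whole lung, more cells of a type and more RNA per cell cannot be told apart.

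The 9 genes did not move together. Spp1 was 10.3-fold higher in the PM2.5 library, Fabp5 2.29-fold, Trem2 1.67-fold and Lgals3 1.66-fold. Gpnmb was 2.21-fold lower and Plin2 1.71-fold lower. Apoe, Cd9 and Cd63 had ratios between 0.979 and 1.21. Here a gene counts as higher or lower when its ratio is at least 1.5-fold in that direction and its interval leaves out 1. By that rule 4 of the 9 genes were higher and 2 lower, beside 14.9% of all 14518 genes higher and 19.1% lower. At 2-fold, 2 of the 9 were higher and 1 lower, beside 7.25% and 6.04% of all genes. Since these values chose the members, nothing is read from that comparison. The median log2 ratio was 0.27 over the 9 genes and -0.09 over all tested genes, whose quartiles were -0.48 and 0.33.

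**Figure D1:**
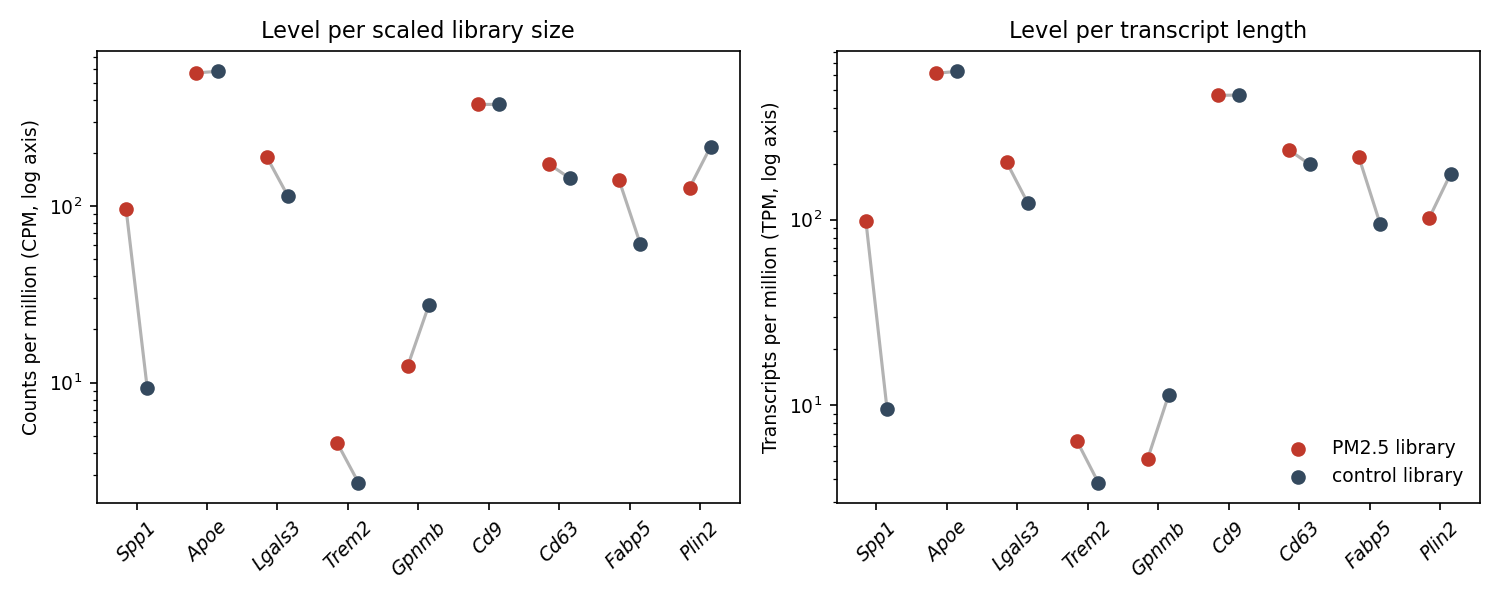
Level of each of the 9 genes in the PM2.5 library (red, left of each pair) and the control library (dark, right), as CPM (left panel) and as TPM, the count per transcript length scaled to a common sum (right panel), both on log axes; each point is 1 library. Spp1 stood at 96.6 CPM in the PM2.5 library against 9.35 CPM in the control library, while Gpnmb and Plin2 lie lower in the PM2.5 library.

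Among the secreted members, Spp1 (ENSMUSG00000029304, GRCm38 chromosome 5, 104435118 to 104441050, plus strand) had the largest difference. Osteopontin is a phosphorylated matrix protein and cytokine that binds integrins and CD44, and it is made by macrophages, bone cells and some epithelia. It had 6010 counts in the PM2.5 library and 542 in the control library, or 96.6 CPM against 9.35 CPM. The ratio of 10.3 had an interval of 9.46 to 11.3. Of all 14518 tested genes, 53 had a higher ratio. Among the 1933 genes with at least as much CPM in the PM2.5 library, 4 did. Per transcript length, scaled to a common sum over all genes (TPM), Spp1 stood at 97.9 TPM in the PM2.5 library and 9.51 TPM in the control library.

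Apoe (ENSMUSG00000002985, chromosome 7, 19696109 to 19699188, minus strand) encodes apolipoprotein E, which macrophages secrete to carry cholesterol. It had 35264 counts in the PM2.5 library and 33559 in the control library, 567 CPM and 579 CPM. The ratio was 0.979 (0.965 to 0.994) and turned with the scaling, to 1.15 with library totals.

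Lgals3 (ENSMUSG00000050335, chromosome 14, 47367751 to 47386160, plus strand) encodes galectin-3, a lectin that binds galactosides and gathers on damaged lysosomes. It had 11746 counts in the PM2.5 library, or 189 CPM, and 6576 in the control library, or 113 CPM. The ratio of 1.66 had an interval of 1.62 to 1.72.

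Among the receptors and membrane glycoproteins the 2 members went opposite ways. Trem2 (ENSMUSG00000023992, chromosome 17, 48346401 to 48354147, plus strand) was the rarest of the 9 in CPM, with 282 counts in the PM2.5 library and 157 in the control library, or 4.53 CPM against 2.71 CPM. Its ratio of 1.67 had the widest interval relative to its size, 1.37 to 2.05, so at this depth a size below 1.5-fold lies within counting error. Gpnmb (ENSMUSG00000029816, chromosome 6, 49036546 to 49070929, plus strand) encodes a glycoprotein of melanosomes and lysosomes, induced in lipid-laden macrophages by the MiT/TFE transcription factors. It had 773 counts in the PM2.5 library and 1594 in the control library, 12.4 CPM against 27.5 CPM. It was 2.21-fold lower, with a ratio of 0.452 (0.414 to 0.493). Per transcript length, Spp1 stood above Gpnmb in the PM2.5 library, at 97.9 and 5.13 TPM, and below it in the control library, at 9.51 and 11.4 TPM. With the union of all exons as the length, Spp1 stood above Gpnmb in the control library too, at 10.9 and 8.09 TPM.

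The tetraspanins, 4-pass membrane proteins that organise other proteins into domains, both stayed short of 1.5-fold. Cd9 (ENSMUSG00000030342, chromosome 6, 125460266 to 125494791, minus strand) had 23391 counts in the PM2.5 library and 21789 in the control library, which is 376 CPM in each. Its ratio was 1.001 (0.982 to 1.02). Cd63 (ENSMUSG00000025351, chromosome 10, 128900989 to 128912822, plus strand) marks late endosomes, lysosomes and exosomes. It had 10772 counts in the PM2.5 library and 8327 in the control library, 173 CPM against 144 CPM. Its ratio of 1.21 (1.17 to 1.24) was beyond counting error and short of 1.5-fold.

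The lipid carrier and the droplet protein differed in direction. Fabp5 (ENSMUSG00000027533, chromosome 3, 10012548 to 10016607, plus strand) encodes a cytosolic carrier of fatty acids. It had 8706 counts in the PM2.5 library and 3551 in the control library, 140.0 CPM against 61.2 CPM, and a ratio of 2.29 (2.20 to 2.38). Plin2 (ENSMUSG00000028494, chromosome 4, 86648386 to 86670060, minus strand) encodes perilipin 2, which coats lipid droplets in most cell types and is also expressed by lipid-storing fibroblasts of the alveolar wall. It had 7875 counts in the PM2.5 library and 12579 in the control library, 127 CPM against 217 CPM. It was 1.71-fold lower (1.67 to 1.76), which is a ratio of 0.584.

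In the order of levels per transcript length, Apoe and Cd9 stood first and second in both libraries, at 615 and 468 TPM in the PM2.5 library and 630.3 and 469 TPM in the control library. They were followed in the PM2.5 library by Cd63 (239 TPM), Fabp5 (217 TPM), Lgals3 (203 TPM), Plin2 (102 TPM), Spp1 (97.9 TPM), Trem2 (6.36 TPM) and Gpnmb (5.13 TPM). In the control library the order after Cd9 was Cd63 (199 TPM), Plin2 (176 TPM), Lgals3 (123 TPM), Fabp5 (95.1 TPM), Gpnmb (11.4 TPM), Spp1 (9.51 TPM) and Trem2 (3.82 TPM). These values use the longest principal transcript of each gene. With the union of all annotated exons as the length, Apoe and Cd9 stayed first and second, but the places below them moved, and Spp1 stood at place 4 in the PM2.5 library and place 7 in the control library. With 1 library per group, the spread that neighbours in this order would need is not known. The summed level of the 9 genes was 1685 CPM in the PM2.5 library and 1529 CPM in the control library. Spp1 made 5.73% of the sum in the PM2.5 library and 0.611% in the control library, and without it the sums were 1589 CPM (PM2.5) and 1520.1 CPM (control).

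**Figure D2:**
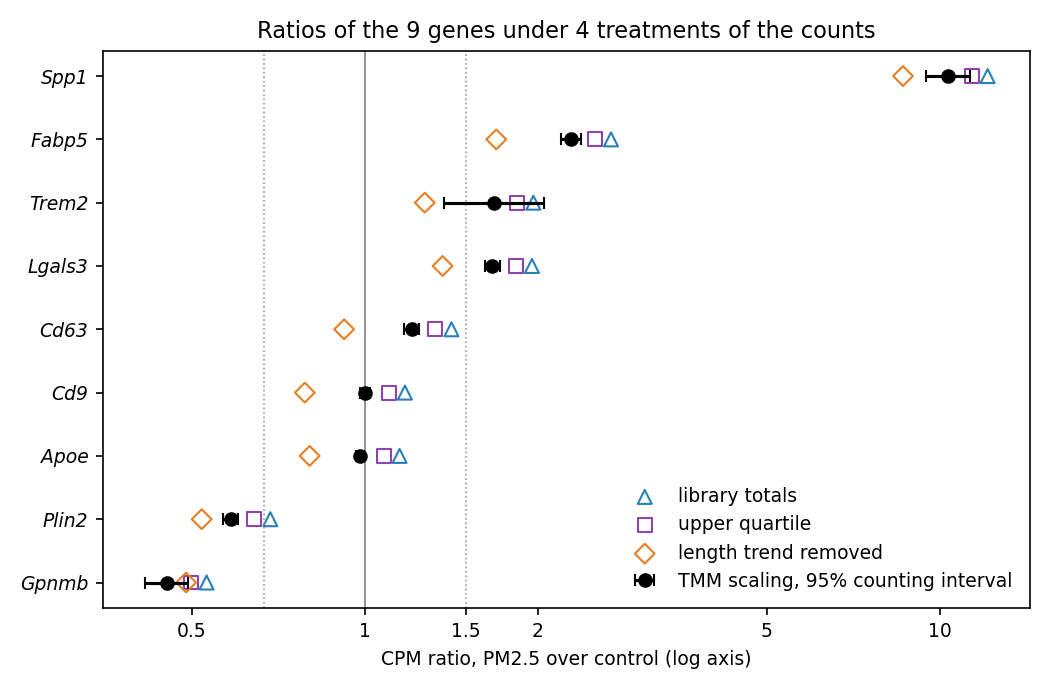
CPM ratio, PM2.5 over control, of each of the 9 genes on a log axis. Filled points with bars are the TMM-scaled ratios with 95% counting intervals, open symbols the ratios with library totals, upper-quartile scaling or the length trend removed; the solid line marks a ratio of 1 and the dotted lines 1.5-fold. Spp1, Fabp5, Gpnmb and Plin2 stay on their side of 1 throughout, while Cd9, Apoe and Cd63 cross it.

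The calls of Lgals3 and Trem2 depend on the general relation of ratio and length. Across the 14386 tested genes with a length and counts in both libraries, which are not independent replicates, shorter transcripts had higher ratios (Spearman's rho -0.409), and the principal transcripts of the members other than Gpnmb measure 987 to 1888 nt. With that trend removed, the ratio of Lgals3 was 1.37, that of Trem2 1.27 and that of Fabp5 1.69, while Spp1 kept 8.64, Gpnmb 0.488 and Plin2 0.520. Library totals in place of TMM scaling raise every log2 ratio by 0.23, which put Plin2 at 0.684, short of 1.5-fold, and left Gpnmb at 0.530. Over all tested genes the shares higher and lower were 23.8% and 9.90% with library totals and 19.5% and 13.2% with the upper quartile. With the length trend removed they were 13.0% and 16.2%. Counts of the gene lists and marker lists under these settings stand beside these shares. With TMM scaling they stand beside 14.9% higher and 19.1% lower.

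**Figure D3:**
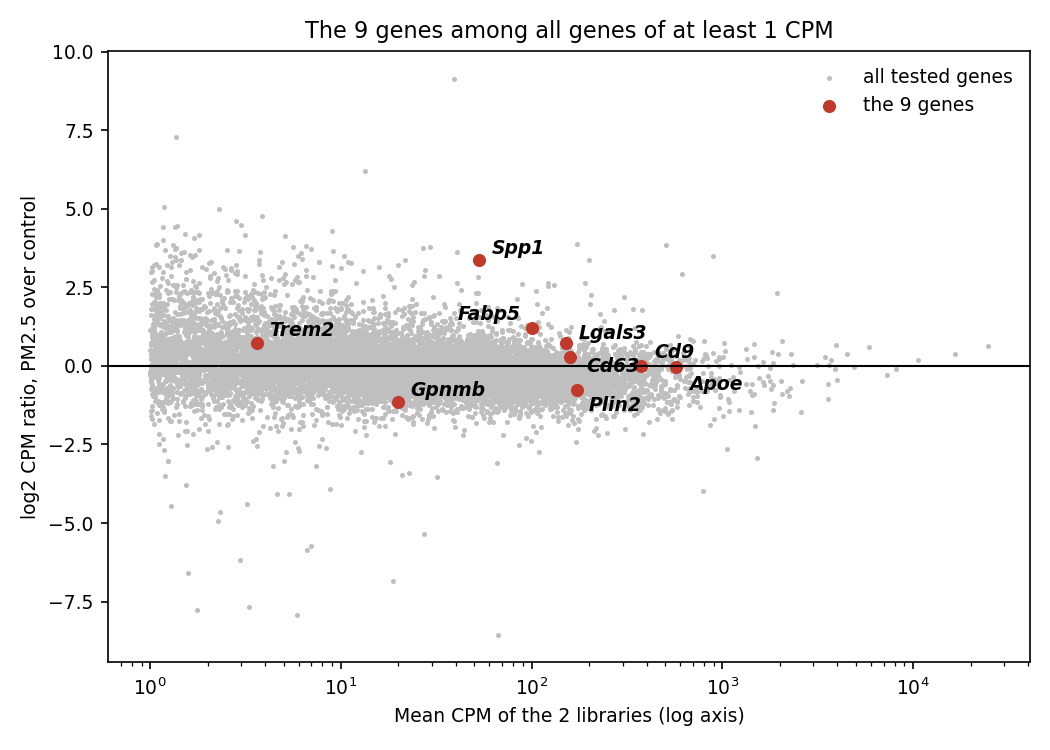
log2 CPM ratio, PM2.5 over control, against the mean CPM of the 2 libraries (log axis) for genes of at least 1 CPM, in grey, with the 9 genes in red; 1 gene with no count in the control library is not drawn. Spp1, at a log2 ratio of 3.37, stands clear of most genes at its level, whereas Cd9 and Apoe lie close to 0.

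Spp1 and Gpnmb are the members with the largest differences in either direction, and Trem2 encodes the receptor of this macrophage state, so the reference sequence before their starts is shown for comparison. These are the 250 bases before the first RefSeq start, on GRCm38.p6, plus strand, 5′ to 3′. They lie at chr5:104434861-104435110 (Spp1), chr17:48346151-48346400 (Trem2) and chr6:49036268-49036517 (Gpnmb). Capitals mark matches, on either strand, to 6 short motifs.
Spp1: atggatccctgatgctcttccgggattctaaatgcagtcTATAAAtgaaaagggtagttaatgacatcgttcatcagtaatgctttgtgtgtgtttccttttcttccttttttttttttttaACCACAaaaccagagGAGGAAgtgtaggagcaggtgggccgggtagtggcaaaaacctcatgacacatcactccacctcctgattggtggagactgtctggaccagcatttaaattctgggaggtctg
Trem2: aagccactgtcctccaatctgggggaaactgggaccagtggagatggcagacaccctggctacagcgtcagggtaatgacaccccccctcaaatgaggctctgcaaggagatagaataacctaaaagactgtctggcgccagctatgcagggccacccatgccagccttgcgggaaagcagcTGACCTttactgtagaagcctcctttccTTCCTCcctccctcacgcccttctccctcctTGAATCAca
Gpnmb: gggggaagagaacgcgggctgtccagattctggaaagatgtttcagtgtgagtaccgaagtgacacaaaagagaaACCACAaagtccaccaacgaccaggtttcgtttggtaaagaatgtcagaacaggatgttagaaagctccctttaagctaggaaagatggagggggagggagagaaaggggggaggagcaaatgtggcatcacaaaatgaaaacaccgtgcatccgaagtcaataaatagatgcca

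The Spp1 window held a TATA letter match beginning 211 bases before the start, a RUNX match at 128 and an ETS match at 113. The Trem2 window held a half-site at 68, an ETS match at 40 and an AP-1 match at 9. The Gpnmb window held a RUNX match at 175. No motifs overlapped each other in these windows. RefSeq windows were found for 8 of the 9 members, 11 windows in all, and Fabp5 had no entry. CACGTG, the E-box that MiT/TFE factors can bind, was in 0 of the 11 windows and in 6.02% of all 32851 windows of the same length. TGANTCA, the AP-1 motif, was in 1 of the 11 and in 6.75% of all windows. AGGTCA, the nuclear receptor half-site, was in 2 of the 11 and in 14.02% of all. GAGGAA, the core that ETS factors such as PU.1 bind, was in 5 of the 11 and in 23.25% of all. TGTGGT, the RUNX core, was in 2 of the 11 and in 14.05% of all. TATAAA, the TATA box, was in 2 of the 11 and in 12.37% of all. These are letter matches and say nothing of binding.

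The receptor genes of osteopontin were mostly lower in the PM2.5 library, while the enzymes that act on it differed in direction. Of 10 osteopontin receptor genes, integrin chains and CD44, 0 were higher and 7 lower, with a median log2 ratio of -0.77. Of all tested genes, 14.9% were higher and 19.1% lower. With library totals or with the length trend removed, 4 of the 10 were lower, and at 2-fold 0 were. Cd44 had 152 CPM in the PM2.5 library and 168 CPM in the control library, a ratio of 0.906 (0.881 to 0.933). Itga8, the chain that pairs with beta 1 in stroma, stood at 201 CPM (PM2.5) against 377 CPM (control) (ratio 0.534), Itga5 at 49.7 CPM (PM2.5) against 97.9 CPM (control) (0.508) and Itgb5 at 101 CPM (PM2.5) against 174 CPM (control) (0.580). Itga4, which leukocytes carry, had the highest ratio of the list, 1.15. Of the enzymes that cut or cross-link osteopontin, Mmp3 and Mmp9 were 1.59-fold and 1.80-fold higher, Mmp12 had a ratio of 1.28, and the transglutaminase Tgm2 was 1.69-fold lower. The matrilysin gene Mmp7 had 1 count in the PM2.5 library and 0 in the control library, where a count of 0 allows up to 3. Of the bone matrix genes that lie beside Spp1 on the chromosome, Dmp1, Dspp and Mepe had 0 counts in both libraries and Ibsp had 6 in the PM2.5 library and 4 in the control library. The next genes on the other side, Pkd2 and BC005561, had ratios of 0.603 and 1.08.

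The adaptor of TREM2 followed its receptor in direction. Tyrobp had 149 CPM in the PM2.5 library and 73.6 CPM in the control library, a ratio of 2.02 (1.95 to 2.09), and Hcst, a second adaptor, a ratio of 1.81. Both adaptors also serve receptors of neutrophils and natural killer cells. Of the 8 genes of TREM2 signalling these 2 were higher and 0 lower (3 higher with library totals, 1 with the length trend removed), with Syk at 1.38, the phosphatase gene Inpp5d at 0.680 and the growth factor receptor gene Csf1r at 0.885. The list median was 0.04. Among the other TREM receptors, Trem1 and Trem3, both used by granulocytes, were 2.30-fold and 2.85-fold higher. Treml1 of platelets was 2.45-fold lower, and Treml2 and Treml4 had ratios of 1.01 and 0.793. Of the MiT/TFE factors, 0 of 4 met either size with TMM scaling, and 1 was lower with the length trend removed. Mitf had a ratio of 0.808, Tfeb 0.675, Tfe3 0.682 and Tfec 1.13, and the median was -0.43.

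Other genes reported for lipid-associated macrophages were mixed. The 24 genes had a median log2 ratio of -0.19, and 4 met the size in each direction. Beside them stand 14.9% of all tested genes higher and 19.1% lower, so the counts are not read as a trait of these genes. With library totals the median was 0.04, with 6 higher and 1 lower, and with the length trend removed 2 were higher and 3 lower. With TMM scaling the higher genes were Fabp4 at 6.08-fold, at 153 CPM (PM2.5) against 25.2 CPM (control), a carrier typical of adipocytes and capillaries as well, the galectin gene Lgals1 at 2.50-fold, the cystatin gene Cst7 at 1.81-fold and the beta-glucan receptor gene Clec7a at 1.60-fold. The lower genes were progranulin, Grn, at 2.13-fold, the saposin precursor Psap at 1.72-fold, the receptor gene Axl at 1.69-fold and the fatty acid transporter Cd36 at 1.51-fold. The abundant lysosomal genes Npc2 and Ctsd had ratios of 0.850 and 0.859.

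Genes of cholesterol export and lipoprotein uptake were lower while small apolipoprotein genes near Apoe were higher. The median of the 13 measured genes was -0.74, and 7 were lower and 2 higher. Lrp1, a receptor for apolipoprotein E, stood at 199 CPM in the PM2.5 library against 501 CPM in the control library (ratio 0.397), the cholesterol exporter Abca1 at 79.4 CPM (PM2.5) against 156 CPM (control) (0.507), and the phospholipid transfer protein gene Pltp at 199.6 CPM (PM2.5) against 391 CPM (control) (0.511). The higher genes were Apoc1 at 1.60 (1.48 to 1.74) and Apoc2 at 1.63 (1.24 to 2.15), and with the length trend removed 0 were higher. Apoc1 lies 3449 bp from Apoe, whose own ratio was 0.979, and Tomm40 on its other side had 0.827. Among 6 lipid-sensing nuclear receptor genes, Pparg was 1.65-fold higher, Rxra and Ppard were 1.99-fold and 1.67-fold lower, and the liver X receptor genes Nr1h3 and Nr1h2 had ratios of 0.940 and 0.928, near Ppara at 0.985. With the length trend removed 0 of the 6 were higher, so Pparg no longer met the size. Their median of -0.10 turns positive with library totals (0.13) and upper-quartile scaling (0.04).

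Within the gene families of the members, 3 of the 4 other perilipin genes were higher while Plin2 was lower. Plin1, the perilipin of adipocytes, was 4.58-fold higher, at 17.8 CPM (PM2.5) against 3.88 CPM (control), Plin4 1.73-fold and Plin5 1.61-fold. Plin3 had a ratio of 0.923 (0.887 to 0.961), below 1 as for Plin2, but its side of 1 depends on the scaling. Its log2 ratio of -0.115 turns positive with library totals and the upper quartile, which raise every log2 ratio by 0.230 and 0.138. With the length trend removed 2 of the 4 were higher. Of 4 other fatty acid binding protein genes, 3 were higher, as Fabp5 was. Fabp4, Fabp3 and Fabp12 were 6.08-fold, 1.73-fold and 1.74-fold higher, and Fabp1 had a ratio of 0.991. With the length trend removed 2 were higher and 1 lower. Among 7 other galectin genes, 3 were higher and 1 lower. Lgals4 was 4.82-fold higher on 538 counts (PM2.5) and 104 (control), Lgals1 2.50-fold and Lgals12 2.06-fold, whereas Lgals3bp, whose protein binds galectin-3, was 1.64-fold lower. Of 14 other tetraspanin genes, 1 was higher and 4 lower. The leukocyte gene Cd37 was 2.15-fold higher and Tspan7 2.21-fold lower, and Cd81 and Cd151 had ratios of 0.791 and 0.971. The tetraspanin counts turn with the scaling. With library totals 4 were higher and 1 lower, beside 23.8% and 9.90% of all tested genes. With the upper quartile 3 were higher and 2 lower, beside 19.5% and 13.2% of all tested genes. The tetraspanin median of -0.15 was 0.08 with library totals, where the median of all tested genes was 0.14.

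**Figure D4:**
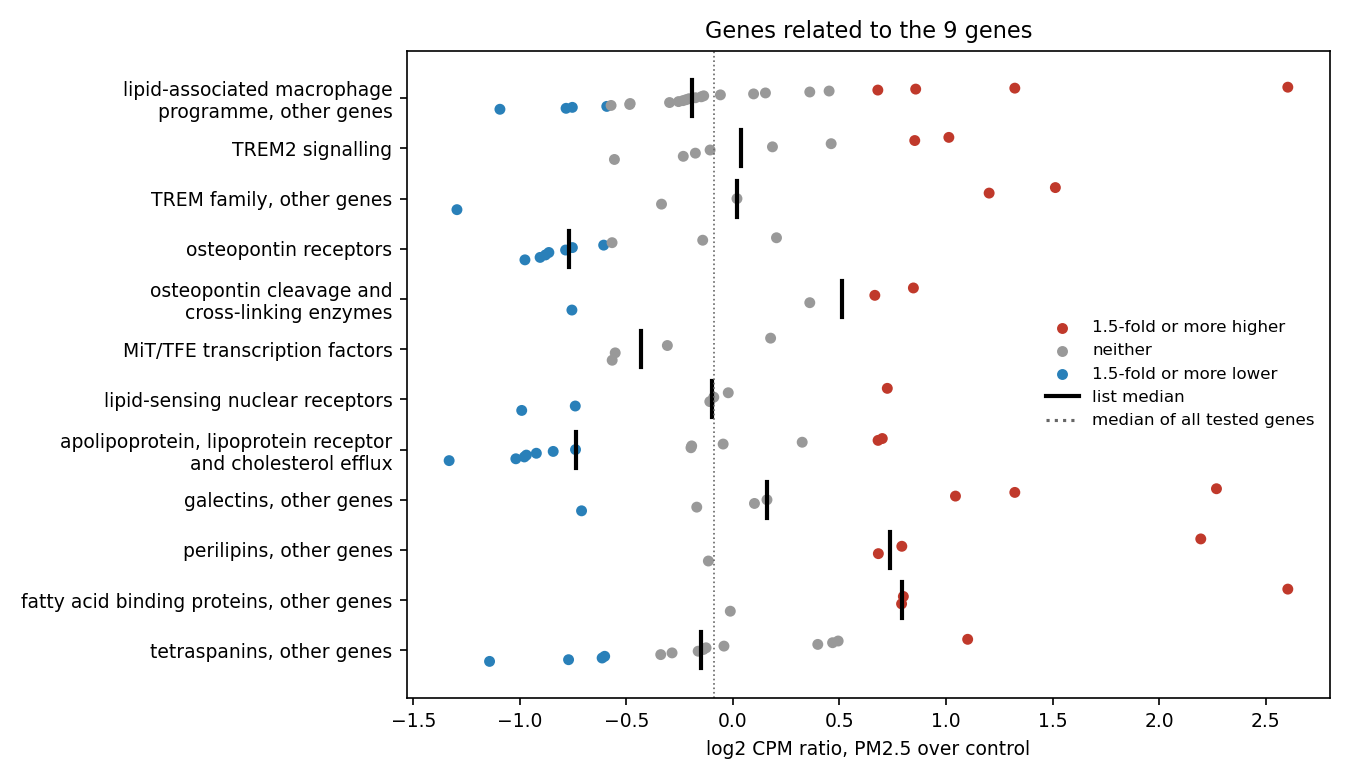
log2 CPM ratio, PM2.5 over control, of the tested genes of each list of related genes; each point is a gene, red if 1.5-fold or more higher, blue if 1.5-fold or more lower and grey otherwise, with a black bar at the list median and a dotted line at the median of all tested genes, -0.09. Osteopontin receptors and cholesterol genes lie mostly to the left, and most of the other perilipins and fatty acid binding proteins to the right.

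The 9 genes were set beside markers of the cells that could carry them. Among 12 general macrophage genes the median log2 ratio was 0.39, with 5 genes higher and 2 lower. With the length trend removed 0 were higher and 1 lower, and with library totals 6 were higher and 0 lower. Their summed level was 7534 CPM in the PM2.5 library and 5114 CPM in the control library, most of it lysozyme, Lyz2, which alveolar type 2 cells and neutrophils also express. Without Lyz2 the sums were 475 CPM (PM2.5) and 461 CPM (control), a ratio of 1.03. The complement gene C1qc was 1.61-fold higher, Mertk was 1.55-fold lower, and Cd68 and Csf1r had ratios of 0.867 and 0.885. The sums without Lyz2 thus join genes that went in either direction. Spp1 had a ratio of 10.3, and a change within macrophages was not tested. Of 13 alveolar macrophage genes, 2 were higher and 1 lower, with sums of 1019 CPM (PM2.5) and 1005.2 CPM (control). Marco was 3.57-fold higher, as was Cidec, also on the adipocyte list, at 2.01-fold, and Mrc1 was 1.62-fold lower. Chil3, the most abundant of the list at 475 CPM (PM2.5) and 415 CPM (control), and Ear2 had ratios of 1.15 and 1.30. The median of -0.07 was 0.16 with library totals. Of 12 monocyte and interstitial macrophage genes, 4 were higher and 3 lower, with sums of 1091 CPM (PM2.5) and 2338 CPM (control) set by Ace, which capillaries also express. Folr2 was 2.13-fold, Ms4a7 1.87-fold, Ly6c2 1.83-fold and Ccr2 1.59-fold higher, whereas Ace was 2.66-fold, Lyve1 2.13-fold and Cx3cr1 1.66-fold lower. With library totals 6 were higher and 2 lower.

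Most neutrophil markers moved with the higher members. Of 11 genes, 9 were higher and 2 lower, with sums of 1761 CPM in the PM2.5 library and 559.96 CPM in the control library. S100a8, S100a9 and Csf3r were 3.46-fold, 3.43-fold and 3.93-fold higher, and the granule genes Ngp and Camp were 3.36-fold and 2.80-fold lower. Of 9 dendritic cell genes, 1 was higher and 1 lower, with sums of 198 CPM (PM2.5) and 234 CPM (control). T and NK cell genes summed to 131 CPM (PM2.5) and 79.1 CPM (control), with 5 of 9 higher. Those were Cd8a, Nkg7, Klrd1, Gzmb and Gzma, while Cd3e, Cd3d, Trac and Cd4 had ratios of 0.882, 1.19, 0.775 and 0.746. B cell genes summed to 384 CPM (PM2.5) and 219.8 CPM (control), with 4 of 5 higher. With the length trend removed, 2 of the 5 B cell genes were higher. In the T and NK cell list 4 were then higher and 1 lower. At 2-fold, 1 B cell gene and 3 T and NK cell genes were higher. The part of these cells in the higher level of Spp1, Trem2 and Lgals3 was not tested.

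Adipocyte markers also moved with them, and Fabp5 and Plin2 are genes that fat tissue expresses. Of 13 adipocyte genes, 12 were higher and 1 lower, and their sums were 889 CPM in the PM2.5 library and 216 CPM in the control library. Ucp1, the uncoupling protein of brown fat, had 4855 counts in the PM2.5 library and 8 in the control library. Plin2 was lower beside them. The part of fat tissue in the level of Fabp5 was not tested. Of 10 airway secretory genes, 8 were higher and 0 lower, with sums of 34956 CPM (PM2.5) and 21954 CPM (control). Bpifa1 was 7.56-fold higher. Of 11 genes of basal cells and squamous keratinocytes, which express Fabp5 strongly in skin, 2 reached 1 CPM, and the sums were 16.2 CPM (PM2.5) and 5.78 CPM (control). Alveolar type 2 genes, with 0 higher and 3 lower of 10, summed to 28493 CPM (PM2.5) and 26542 CPM (control), and alveolar type 1 genes, with 0 higher and 3 lower of 8, to 5556 CPM (PM2.5) and 7853 CPM (control). The part of epithelium in Cd9, Cd63, Lgals3 and Fabp5 was not tested.

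Markers of bone, kidney and pigment cells, known for Spp1 or Gpnmb outside the immune system, were set beside them too. Of 10 osteoclast and bone genes, 3 reached 1 CPM, 0 were higher and Calcr was lower. Their sums of 54.4 CPM (PM2.5) and 56.4 CPM (control) rest on Acp5 and Ctsk, which macrophages share and which had ratios of 1.07 and 0.902. Bglap and Dmp1 had 0 counts in the PM2.5 library, and Oscar, Dmp1 and Sp7 had 0 in the control library. Also below 1 CPM, Ocstamp had 57 counts (PM2.5) and 9 (control), Dcstamp 22 (PM2.5) and 76 (control), and Oscar 11 (PM2.5). Kidney tubule genes Umod and Slc12a1 had 1 and 7 counts in the PM2.5 library and 4 each in the control library. A further gene of that list, also below 1 CPM, had 51 counts (PM2.5) and 23 (control), a ratio of 2.07 (1.24 to 3.54). The duct keratins, which lung epithelium shares, were abundant. Krt7 had 331 CPM in the PM2.5 library and 378 CPM in the control library (ratio 0.876), and Krt19 had 224 CPM in the PM2.5 library and 172 CPM in the control library (ratio 1.30). Melanocyte genes summed to 4.45 CPM in the PM2.5 library and 2.28 CPM in the control library, near the floor. Of 7, Pmel and Mlana were higher on 145 and 101 counts in the PM2.5 library and 77 and 46 in the control library. The others were below 1 CPM. Tyr had 22 counts (PM2.5) and 5 (control), and Dct 2 (PM2.5) and 4 (control). Tyrp1, Oca2 and Slc45a2 had 4, 1 and 2 counts in the PM2.5 library and 0 in the control library. The part of pigment cells in the level of Gpnmb was not tested.

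Stromal and vascular markers were lower in part, beside the lower Plin2 and Gpnmb. Endothelial genes summed to 3119 CPM in the PM2.5 library and 7279.65 CPM in the control library, with 0 higher and 6 lower of 7. Fibroblast genes summed to 4040 CPM (PM2.5) and 4874 CPM (control), with 3 higher and 4 lower of 8. Dcn was 2.68-fold higher and Col1a1 4.20-fold lower. Smooth muscle genes, with 3 higher and 0 lower of 6, summed to 943 CPM (PM2.5) and 714 CPM (control), and red blood cell genes, with 1 higher and 5 lower of 6, to 2462 CPM (PM2.5) and 5276 CPM (control). Their part in the lower members was not tested.

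**Figure D5:**
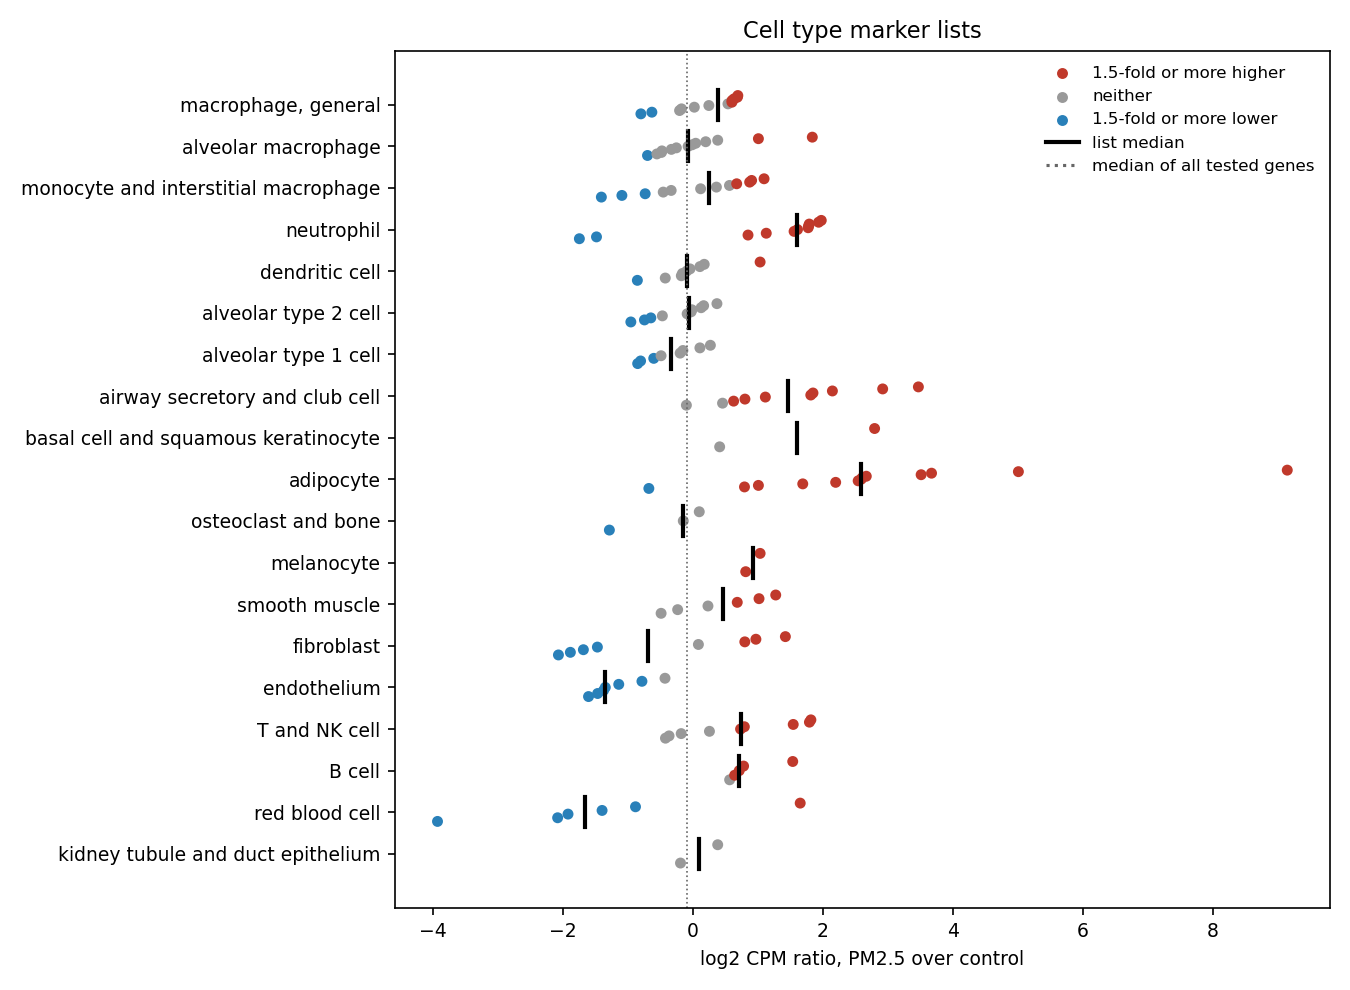
log2 CPM ratio, PM2.5 over control, of the tested genes of 19 cell type marker lists; each point is a gene, red if 1.5-fold or more higher, blue if 1.5-fold or more lower and grey otherwise, with a black bar at the list median and a dotted line at the median of all tested genes. The medians were 0.39 for general macrophage genes, 0.24 for monocyte and interstitial macrophage genes and -0.07 for alveolar macrophage genes. Neutrophil and adipocyte genes lie mostly to the right, and endothelial genes to the left.

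The 5 protein-coding genes most like Spp1, by distance over the 2 log2 CPM values, were Cep85, Hjurp, Thrsp, Ifi27l2a and H2-Q10. Cep85, a centrosome gene, was nearest at a distance of 0.542 log2 units, with 70.1 CPM in the PM2.5 library and 11.4 CPM in the control library. Hjurp, a chaperone of centromeric histone, had 71.4 CPM (PM2.5) and 13.4 CPM (control) at a distance of 0.680, and Thrsp, a gene of lipid synthesis, 75.3 CPM (PM2.5) and 6.09 CPM (control) at 0.716. The interferon-induced gene Ifi27l2a had 87.2 CPM (PM2.5) and 17.6 CPM (control), a distance of 0.927. H2-Q10, an MHC class I gene whose near-identical relatives can share its reads, had 49.7 CPM (PM2.5) and 11.0 CPM (control), a distance of 0.987. Likeness over 2 libraries rests on 2 values per gene.

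The genes next to the members went in either direction. Of 36 neighbouring genes, the nearest 2 on each side of each member, 20 reached 1 CPM. Of these, 3 were higher and 6 lower, beside 14.9% and 19.1% of all tested genes, and nothing is read from these counts. Rdh5, 771 bp from Cd63, was 2.98-fold higher, and Treml1, 5769 bp from Trem2, was 2.45-fold lower. The pseudogenes named for members held few reads, with 7 counts (PM2.5) and 11 (control) for Cd63-ps, 1 (PM2.5) and 0 (control) for Cd9-ps, and 3 (PM2.5) and 0 (control) for Fabp5l2.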

How the data were processed

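Lung mRNA was purified on beads after TRIzol extraction and sequenced as stranded paired libraries (125 bp), per the labels' protocols. Tools listed by the submitters' processing notes are HTSeq 0.6.0 and TopHat2 2.1.1, with build mm10. The strand setting and the annotation release were not given in the sources used here. Raw read counts per Ensembl gene, without normalization, were deposited by the authors. Of 37315 identifiers, 35449 had a GENCODE M21 symbol.

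TMM factors from edgeR 4.0.16 were 1.08 (PM2.5) and 0.923 (control), and CPM ratios were given exact 95% counting intervals. With 1 library per group no model was fitted and no test was run. Reads are not independent molecules, so intervals cover counting error only. Genes entered at a mean of at least 1 CPM. TPM used the longest APPRIS principal transcript. The 9 members, 13 gene lists and 19 marker lists were chosen with earlier results of these data known. The rule for names took from each list up to 4 of the most abundant genes, the extremes, and all genes of lists of up to 6. The marker lists were given mainly by counts and sums, so many genes that this rule allows were not named. Further genes, whether or not they met the size, were named after their values were seen. One listed gene is not reported here by name. Promoter windows came from RefSeq, GRCm38.p6. Alternatives were other scalings (library totals, DESeq2 1.42.0 size factors, the upper quartile, TMM without the 100 most abundant genes), filters, sizes, thinning and lowess removal of the length trend. The steps were tested on simulated data. Software was R 4.3.3 and Python 3.11.15 with statsmodels 0.14.6 and scipy 1.17.1.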

Additional observations from a re-analysis of the deposited data

How the results depend on the processing

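The count of 4 members higher stayed at 4 under the other scalings, with no filter and with the deeper library thinned. It was 3 at a mean of at least 10 CPM, where Trem2 leaves, and 3 with intervals wholly beyond 1.5-fold, where Trem2 again drops out. It was 2 at a size of 2-fold and 2 with the length trend removed, Spp1 and Fabp5 in both. The count of 2 members lower was 1, Gpnmb, with library totals and at 2-fold, and 2 under the other alternatives. The ratio of Spp1 ran between 8.64 and 12.1 over all alternatives. Apoe, Cd9 and Cd63 met no size under any of them, and their side of 1 turned with the scaling or the length trend: with library totals they had 1.15, 1.17 and 1.41, and with the length trend removed 0.801, 0.786 and 0.920. The cause of the relation with length was not tested. No paired analysis was possible because each group has 1 library. Leaving out a replicate was not possible for the same reason. Depth limits Trem2 most, with 282 counts in the PM2.5 library and 157 in the control library.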
